A study of Mus musculus with 4 samples.

Results

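Transcripts that were precipitated with an antibody to Musashi1 (Msi1) were set against the RNA that went into the precipitation, as 1 Msi1 array minus 1 Input array of the 4 arrays in the series. The mice were adult C57BL/6 animals and the tissue was their intestinal epithelium. RNA had been joined to protein by ultraviolet light ahead of the precipitation (CLIP-chip), and no genotype or treatment beyond the strain is given in the labels. The Input array carried RNA taken without an antibody. The Msi1 array carried RNA recovered with a Musashi1 antibody, the IgG array RNA recovered with a nonspecific antibody, and the hnRNP array RNA recovered by targeting a heterogeneous nuclear ribonucleoprotein (hnRNP) whose identity the sources used here do not give. Every array held RNA combined from 2 experiments, with 100 ng labelled for Affymetrix Mouse Gene 1.0 ST arrays. With 1 array per group there was no replicate, so sizes are given without tests and the number of arrays limits the precision.

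Musashi1 belongs to a family of RNA-binding proteins with a pair of RNA recognition motifs, which bind short single-stranded motifs around the letters UAG, mostly in the 3′ ends of messenger RNAs. It is best known as a regulator of translation in neural and intestinal progenitors, with Numb, Cdkn1a and Apc among its published targets. In CLIP, a transcript that is bound should be recovered in excess of its share of the starting RNA, so the level in the input is the reference for each transcript.

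Of 34760 probe sets, 21640 carried 1 gene symbol and gave values for 19937 genes. Signals are in log2 units, and each array's detection floor was the level below which 95% of 1210 olfactory and vomeronasal receptor probe sets lay, since gut epithelium should not express these receptors. The floor was 4.08 on Input and 4.74 on Msi1. The Input array had 11791 genes above its floor and the Msi1 array 9532, against 5604 on IgG and 6563 on hnRNP. Absorptive enterocyte markers bore out the label of the tissue, since 30 of 30 exceeded the Input floor, at 5.93 to 11.95. By the same measure 8 of 19 stromal, endothelial and muscle markers and 3 of 14 enteric neuron and glia markers were above the floor, and none of them exceeded 6.12. Immune cell markers reached higher levels. Over all 19937 genes 11791 passed the Input floor, and neither immune list exceeded that share. Of T cell and myeloid markers 11 of 20 were above the floor, at up to 8.49. Of B and plasma cell markers 9 of 20 were, at up to 9.74. In bulk tissue such levels cannot tell fewer cells of a type from less RNA per cell. The Msi1 transcript itself read 12.16 on Input, 8.14 on IgG, 8.09 on Msi1 and 6.07 on hnRNP, which says nothing of what the antibody to the protein recovered. Its Input level ranked 9 among the 19937 genes, whereas the stem cell marker Lgr5 read 6.71. Why the Msi1 transcript was so bright on Input was not tested.

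The Msi1 array followed the starting RNA, but over a narrower range. Over the 19937 genes the SD was 1.88 on Input and 1.12 on Msi1, and 0.87 and 0.90 on IgG and hnRNP. Across the 11791 genes above the Input floor, which are not independent replicates and share the Input array, Pearson's r with Input was 0.53 for Msi1, 0.09 for IgG and 0.05 for hnRNP. A plain difference therefore depended on how bright a gene was on Input. Among 12784 genes above the floor on either array, 1510 (11.8%) were at least 2-fold higher on Msi1 than on Input. Of these, 809 had Input values under the Input floor, which were not raised to it. Another 4901 (38.3%) were at least 2-fold lower. The higher genes made up 23.6% of these calls, against 13.4% after median centring, 42.6% after quantile normalization and 48.0% after loess centring. These scalings moved the median difference over the same genes, which was −0.57 as deposited, by −0.25, 0.42 and 0.55.

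Genes were therefore compared with others of the same Input level. The 11791 genes above the Input floor were placed in 20 bins of Input level, and the bin-adjusted difference is a gene's Msi1 minus Input difference less the median of its bin, so that the median over all genes is close to 0 by construction. From the dimmest to the brightest bin, the median Input level went from 4.15 to 9.50 and the median Msi1 level from 4.69 to 6.73. The bin median of Msi1 minus Input went from 0.53 to −3.04 on the way. Bin medians stayed between 4.94 and 5.43 on IgG and between 5.02 and 5.26 on hnRNP. On IgG only the brightest bin had a median above that array's floor of 5.265, and most hnRNP medians lay under the hnRNP floor of 5.17. The typical gene was thus at background on both. Bin-adjusted differences on IgG and hnRNP were not raised to a floor, so those near 0 or negative mostly describe background. Genes of 1 bin also lay farther apart on Msi1 at high Input levels, with an SD of 0.59 in the dimmest bin and 1.36 in the brightest, against 0.67 and 1.01 on IgG. In the dimmest bin 53.7% of genes were below the Msi1 floor, and in the brightest 2.37%.

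**Figure D1:**
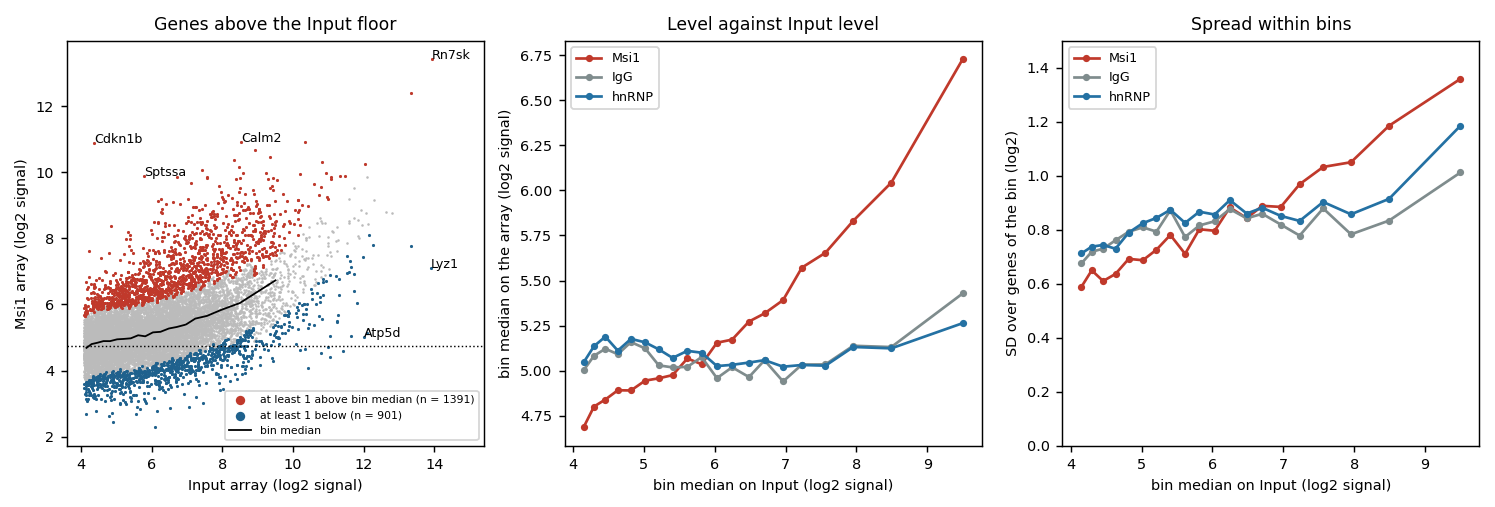
Left, log2 signal of each gene above the Input floor on the Input array (x axis) and the Msi1 array (y axis), with genes at least 1 above (red) or below (blue) the median of their Input bin, the line of bin medians and the Msi1 floor (dotted). Middle and right, the median level and the SD in each of the 20 Input bins on the 3 precipitated arrays, where the Msi1 medians climb from 4.69 to 6.73 while those of IgG and hnRNP stay between 4.94 and 5.43.

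On this measure 1391 of the 11791 genes (11.8%) lay at least 2-fold above their bin and 901 (7.64%) at least 2-fold below it. The excess reached 2 log2 units for 336 genes, 3 for 81 and 4 for 13, while 57 genes lay 2 units or more below their bin and 9 lay 3 or more below. A gene above its bin need not exceed Input: 895 of the 1391 did, 418 by 2-fold or more, and 130 were still at least 2-fold under their Input level. At the threshold, the hedgehog factor Gli1 (0.9997) and the epidermal gene Lce1k (0.9997) were just under it, and Btbd7 (1.0004) and the cell cycle factor E2f7 (1.0004) just over it. On the low side, 752 of the 901 genes had Msi1 values below that array's floor, and 271 remained 2-fold below their bin when such values were raised to the floor. The share called below a bin is thus set largely by values near background. All bin-adjusted differences for IgG and hnRNP quoted here use the same Input array, and each is given as that array's own value.

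The gene farthest above its bin was Cdkn1b, the gene of the cell cycle inhibitor p27. It read 4.37 on Input, 5.38 on IgG, 5.44 on hnRNP and 10.90 on Msi1, so Msi1 alone was far from its array's floor. The excess over Input was 6.53, or 92.3-fold, and the excess over the bin 6.03. That value belongs to 1 of its 2 probe sets. The other read 6.89 on Input and 6.24 on Msi1, and with it the bin-adjusted difference was 0.95. The second probe set thus shows little of the excess.

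Several of the next genes had 1 probe set and rest on no such choice. Sptssa, a small subunit of serine palmitoyltransferase, the first enzyme of sphingolipid synthesis, read 5.79 on Input, 3.71 on IgG, 3.46 on hnRNP and 9.88 on Msi1. Its Msi1 level was 17.1-fold over Input and 4.88 above the bin, while its IgG and hnRNP levels were −1.33 and −1.62 from theirs. Snrpe, a core protein of spliceosomal particles, read 6.73 on Input, 4.88 on IgG, 4.59 on hnRNP and 9.85 on Msi1. It was 8.69-fold over Input and 4.50 above its bin. In both genes the Msi1 value stood above all the other arrays and the control values lay under their floors. Ppp4r2, a regulatory subunit of protein phosphatase 4, read 7.42, 3.03, 4.57 and 10.08 on Input, IgG, hnRNP and Msi1, which put it 6.31-fold over Input and 4.56 above its bin. Tox4, an HMG-box protein, had the same pattern at 7.55, 2.03, 3.07 and 9.82, with a bin-adjusted difference of 4.16.

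Calm2, a calmodulin gene, was high on both of its probe sets. The brighter read 8.52 on Input, 4.90 on IgG, 4.57 on hnRNP and 10.93 on Msi1, and exceeded Input by 2.41 and its bin by 4.87. The other exceeded Input by 1.31. Kdm7a, a histone demethylase, was 4.51 above its bin at 8.33 on Input and 10.38 on Msi1, but its other probe set read 7.03 and 6.62, and with both averaged the bin-adjusted difference was 2.67. Of the 20 genes highest in their bins, others whose IgG and hnRNP values lay less than 1 above their own bin medians were the apoptosis gene Pawr (3.99), the tubulin cofactor Tbca (3.89), the nuclear protein gene Pcnp (3.85), Nus1 of dolichol synthesis (3.80), the kinase Stk17b (3.80) and the small GTPase Arf6 (3.79). Gas5 also met this and is described with the noncoding RNAs. Arf6 shows how the measure works at high Input levels: it read 9.23 on Input and 9.98 on Msi1, an excess of 0.75, in a bin with a median difference of −3.04.

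Other genes of the leading 20 were also at least 1 above their bins on another precipitated array. Aldh3b3, an aldehyde dehydrogenase, read 7.11 on Input and 9.67 on Msi1, 4.23 above its bin, but 10.31 on IgG and 10.36 on hnRNP, which were 5.41 and 5.45 above. Cox20, an assembly factor of cytochrome c oxidase, had bin-adjusted differences of 3.88 on Msi1, 4.28 on IgG and 3.97 on hnRNP. For these genes the IgG control had the larger excess over the bin. Stmn1, which encodes the microtubule regulator stathmin, was 4.79 above its bin on Msi1, 2.77 on IgG and 2.56 on hnRNP. The butyrophilin-like pseudogene Btnl5-ps was 4.15 above on Msi1, 1.03 on IgG and 4.26 on hnRNP. Tfb2m, a mitochondrial transcription factor, was 4.19 above on Msi1, 0.36 on IgG and 2.80 on hnRNP. With their probe sets averaged, Aldh3b3 was 1.01, Btnl5-ps 1.06 and Tfb2m 2.25 above on Msi1.

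**Figure D2:**
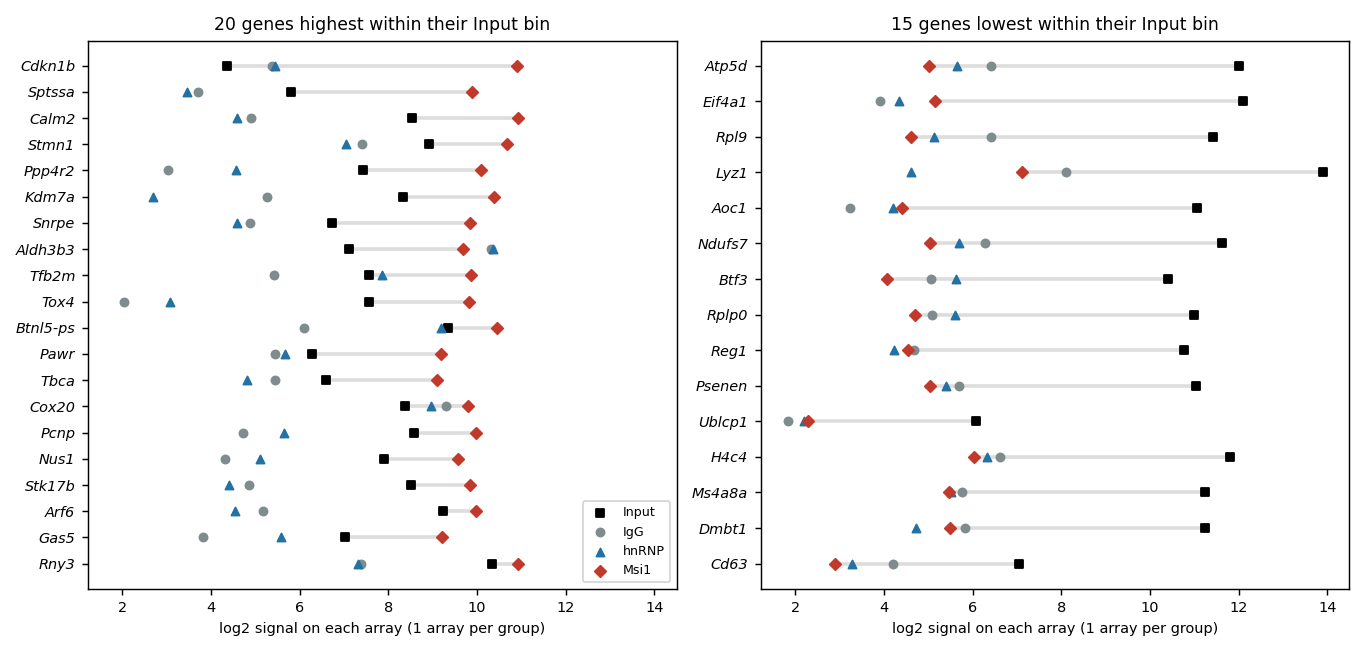
Log2 signal on each of the 4 arrays (x axis, 1 array per group) for the 20 genes highest and the 15 lowest within their Input bins, with a grey bar from the Input to the Msi1 value. Among the highest, Aldh3b3 is the gene at which IgG (10.31) and hnRNP (10.36) exceed Msi1 (9.67), and among the lowest the 3 precipitated arrays lie far to the left of Input.

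The genes farthest below their bins were mostly bright on Input and far dimmer on every precipitated array. Atp5d, the delta subunit of ATP synthase, read 12.02 on Input, 6.41 on IgG, 5.64 on hnRNP and 5.01 on Msi1. Its Msi1 level was 129-fold under Input and −3.97 from its bin, and Msi1 was its lowest array. Lyz1, the Paneth cell lysozyme, read 13.89, 8.10, 4.61 and 7.11 on Input, IgG, hnRNP and Msi1, with a bin-adjusted difference of −3.75. Aoc1, the diamine oxidase of enterocytes, read 11.06 on Input, 3.24 on IgG, 4.21 on hnRNP and 4.40 on Msi1. It was at least 79.9-fold under Input, a bound because its Msi1 value lay under the floor.

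Further genes at this end had several functions. They were the translation factor Eif4a1 (−3.92 on Msi1 and −3.92 on IgG), the complex I subunit Ndufs7 (−3.55), the ribosomal stalk protein Rplp0 (−3.25), the secreted lectin Reg1 (−3.20), the gamma-secretase subunit Psenen (−2.97), the histone H4c4 (−2.73) and the mucosal glycoprotein Dmbt1 (−2.70). Eif4a1 was −0.51 with quantile normalization, where its probe set was chosen again, which ends its call. Of its 3 probe sets 1 read 9.31 on Input and 5.83 on Msi1 as deposited. That is a difference of −3.48, in a bin with a median of −3.04. With its probe sets averaged Eif4a1 was −2.61. Rpl9 (−3.78) and Btf3 (−3.31) moved to −1.22 and −0.93 with their probe sets averaged. Ublcp1 and the tetraspanin Cd63 had Msi1 values of 2.29 and 2.89, so far under the floor that their bin-adjusted differences of −2.93 and −2.60 became −0.48 and −0.76 at the floor.

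The promoters of the genes at the 2 ends differed in composition, and 1 from each end is shown for that reason, both from genes with 1 probe set. Each is 250 bases before to 50 bases after the annotated start, from RefSeq on GRCm38.p6, 5′ to 3′ on the gene's strand, with every CG in capitals. Ppp4r2 (chr6:100833388-100833687, plus strand) has 70.7% G and C and 40 CG. Reg1 (chr6:78425733-78426032, plus strand) has 42.7% G and C and 0 CG.
Ppp4r2: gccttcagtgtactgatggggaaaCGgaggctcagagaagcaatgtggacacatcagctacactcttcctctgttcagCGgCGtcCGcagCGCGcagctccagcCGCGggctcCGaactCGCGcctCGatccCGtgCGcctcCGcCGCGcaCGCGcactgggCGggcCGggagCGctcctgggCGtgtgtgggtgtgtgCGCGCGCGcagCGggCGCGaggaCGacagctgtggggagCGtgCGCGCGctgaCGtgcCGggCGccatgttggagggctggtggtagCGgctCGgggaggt
Reg1: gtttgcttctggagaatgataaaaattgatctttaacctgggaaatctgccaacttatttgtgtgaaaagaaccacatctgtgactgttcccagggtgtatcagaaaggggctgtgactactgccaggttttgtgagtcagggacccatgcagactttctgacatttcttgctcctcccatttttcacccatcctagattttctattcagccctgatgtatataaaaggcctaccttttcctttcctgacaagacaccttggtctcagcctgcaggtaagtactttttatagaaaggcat
The motif CG reads the same on both strands, and 94.2% of 27025 promoters in the table hold at least 1. Of the 20 genes highest in their bins 15 had a promoter in the table, with a median of 66.7% G and C (55.7 to 82.7) and 30 CG. Of the 15 lowest 14 did, with a median of 54.7% (42.7 to 66.3) and 13.5 CG. The 9436 genes above the Input floor with a promoter had medians of 60.7% and 20.

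The same held as a description over those 9436 genes in deciles of promoter G and C. The decile with the least had a median bin-adjusted difference of −0.18 on Msi1 and −0.19 on IgG, with 9.86% of its genes 2-fold above their bins and 10.8% below. The decile with the most had a median of 0.22 on Msi1, 0.04 on IgG and 0.03 on hnRNP, with 19.5% above and 4.56% below. Spearman's rho with promoter G and C was 0.12 for Msi1, 0.06 for IgG and 0.07 for hnRNP, across genes that share the arrays. The length of the gene on the genome gave the opposite slope on all 3 arrays. The shortest decile of 11786 genes had a median of 0.21 on Msi1 and 0.34 on IgG, and the longest −0.12 and −0.14, with rho of −0.09 for Msi1, −0.18 for IgG and −0.20 for hnRNP. Whether transcript composition or length plays a part in the gene differences was not tested, and a promoter is not the sequence that was precipitated.

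**Figure D3:**
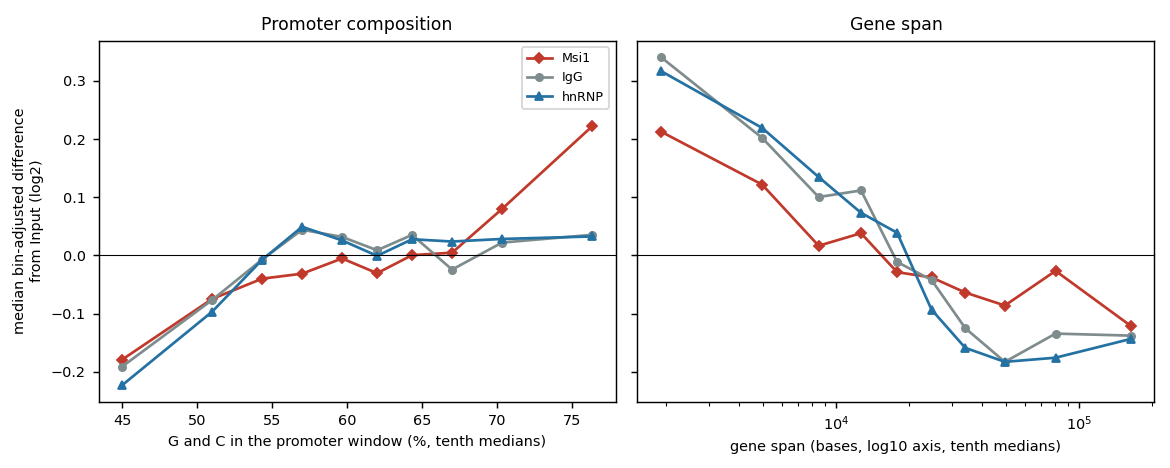
Median bin-adjusted difference from Input (y axis, log2) on the 3 precipitated arrays, in deciles of genes by G and C in the promoter window (left) and by gene span (right, log10 axis). In the decile with the most promoter G and C the Msi1 median is 0.22 and the IgG and hnRNP medians are 0.04 and 0.03, whereas all 3 arrays slope downward with gene span.

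The Msi1 comparison was next read by gene group, beside the 11.8% of all genes above and 7.64% below their bins. These shares varied with Input level. In the dimmest bin 22 of 589 genes were above and 26 below, and in the brightest 143 of 590 and 108. The lists also differed in level, with median Input values of 9.70 for enterocyte markers and 4.73 for tuft cell markers. The shares over all genes are therefore no matched reference for a list of bright or dim genes. Genes for RNA-binding proteins stood at the high end. Of 28 Musashi and hnRNP family genes above the Input floor, 12 were 2-fold above their bins and 3 below, and the list median was 0.91, against −0.01 on IgG and 0.36 on hnRNP. Hnrnpc, which binds nascent nuclear transcripts, read 6.80 on Input, 3.84 on IgG, 3.45 on hnRNP and 9.04 on Msi1, 3.62 above its bin. Syncrip, an hnRNP-like regulator of translation, was 2.94 above. At the other end were Hnrnpr (−1.85, or −0.22 with its Msi1 value of 3.10 raised to the floor) and the splicing repressor Ptbp1 (−1.62 on Msi1, 1.73 on hnRNP). Msi2, the close relative of Msi1, read 6.17 on Input, 5.93 on IgG, 6.57 on Msi1 and 6.20 on hnRNP, and was 1.48 above its bin on Msi1 and 0.99 on IgG. The Msi1 transcript was −1.02 from its bin, or −0.98 in bins formed with the probe sets brightest on Input.

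Splicing proteins and regulators of messenger RNA stability were the groups most like it. Of 51 spliceosomal and SR protein genes 22 were above their bins and 4 below, with a median of 0.65, −0.00 on IgG and 0.11 on hnRNP. Srsf3, an SR splicing factor, was 3.54 above and followed Snrpe, but was 1.99 above with its 3 probe sets averaged. Snrpd3 (−1.87) and Prpf8 (−1.63), both core spliceosome proteins, were at the low end (−1.29 and −1.30 at the floor). Of 28 regulators of stability and translation 9 were above and 0 below, with a median of 0.79, and 0.18 on IgG. Lsm14a, a P-body protein, was 2.70 above and the deadenylase Cnot7 2.67, while the RNA-stabilizing protein Elavl1 was −0.95 and Khsrp −0.87. The median of this group became −0.059 when bins were formed on the mean of the Input and Msi1 levels.

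Protein handling groups had smaller medians. Ubiquitin-conjugating enzymes and ubiquitin-like proteins had 12 of 36 above and 2 below, with a median of 0.56 (0.09 on IgG), led by Dcun1d1 of the neddylation pathway (3.56) and Ube2d2a (3.08, or 1.46 with the probe set brightest on Input). Genes of ER translocation and secretory transport had 11 of 36 above and 5 below, with a median of 0.48 that turned to −0.36 with bins on the mean of both arrays. The members at its ends were the vesicle fusion protein Sec22b (3.03) and the translocon-associated Ssr1 (2.63), and the translocon channel Sec61a1 (−2.24) and Ssr2 (−1.98), so subunits of 1 complex lay at both ends. Chaperones had 14 of 71 above and 1 below and a median of 0.46, with Dnajc13, which acts on endosomes, at 2.70 and Hspa8, the constitutive Hsp70, at −1.43. Dnajc13 had 15 probe sets and was 0.20 above its bin with all of them averaged. Proteasome subunits did not share this, with 3 of 42 above and 6 below and a median of −0.03. Psmc6, an ATPase of the proteasome cap, was 2.77 above its bin, and the assembly chaperone Psmg1 was −2.30, or −0.25 at the floor.

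Apoptosis regulators had 7 of 21 above and 0 below, with a median of 0.40, −0.35 on IgG and −0.14 on hnRNP. They were led by Pawr and by Cflar, the inhibitor of caspase-8 activation, which was 3.41 above its bin on 1 of its 3 probe sets and 0.27 above with the one brightest on Input. Calmodulins and protein phosphatase subunits had 15 of 61 above and 2 below, but a median of 0.06, so Calm2 and Ppp4r2 stood out from a group centred on its bins. Small GTPases and endosomal sorting genes likewise had 25 of 129 above, 7 below and a median of 0.00, with the SNARE Vamp3 at 3.16 and the retriever subunit Vps26c at −2.03, or −0.46 at the floor.

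Ribosomal protein genes show how much rests on the choice of probe set. Of 58 cytosolic ribosomal protein genes 19 were above their bins and 7 below, with a median of 0.62, 0.41 on IgG and 0.32 on hnRNP. In 38 of the 58 the gene had several probe sets, and with the one brightest on Input the median was −0.007. Rpl24 read 6.25 on Input, 9.69 on IgG, 9.78 on hnRNP and 8.80 on Msi1, 3.62 above its bin on Msi1 and 4.67 on IgG. Rps12 was 3.41 above with either choice, but 0.93, under the threshold, with its 7 probe sets averaged. Processed copies of these genes are common in the genome and could share signal with them, so these values are uncertain. Mitochondrial ribosomal proteins (77 genes, 10 above, 8 below, median 0.15), respiratory chain and ATP synthase subunits (79, 14 above, 14 below, median −0.06) and translation factors (43, 9 above, 4 below, median −0.09) were centred near their bins. Within the last group the initiation factor Eif3e (2.78) and the elongation factor Eef2 (−1.55) were far apart.

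**Figure D4:**
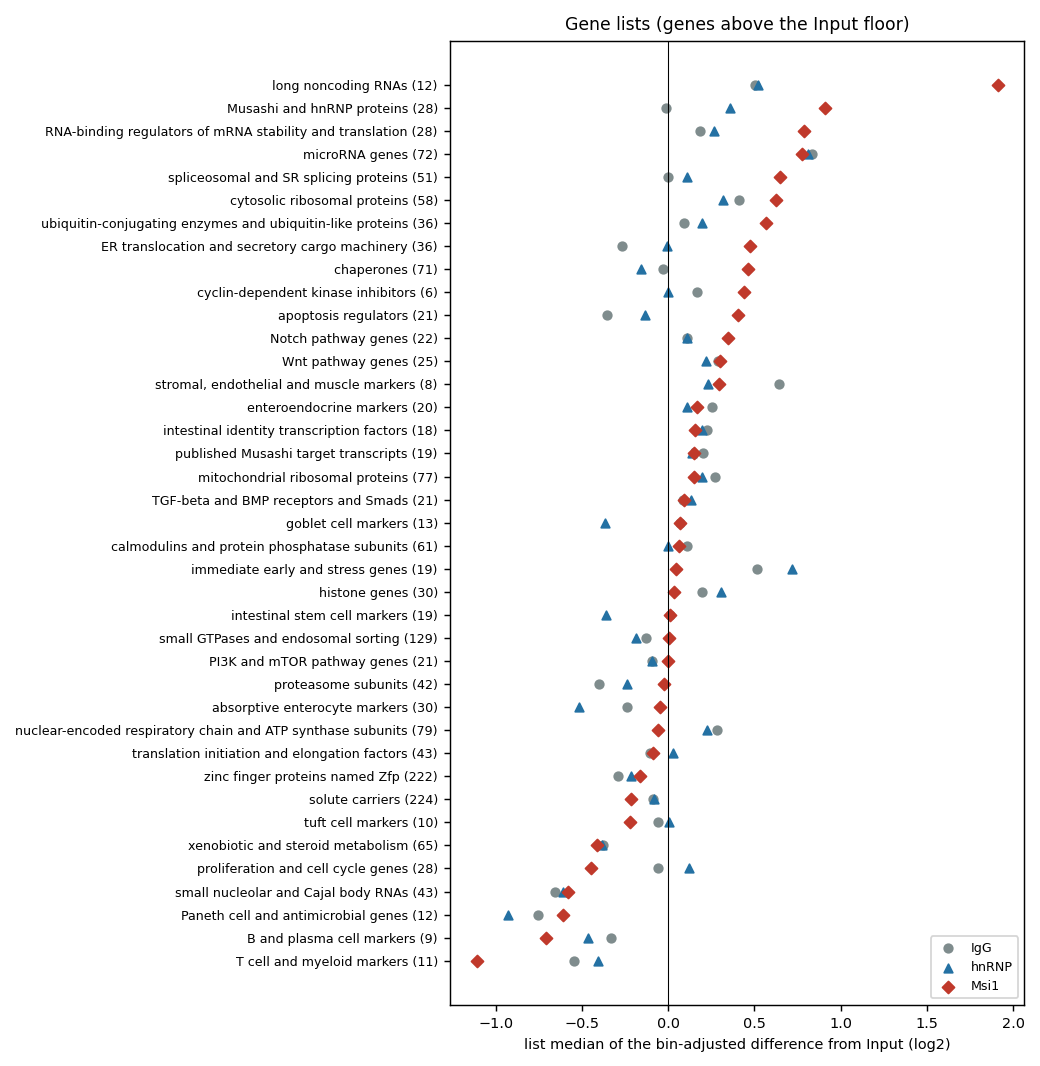
Median bin-adjusted difference from Input (x axis, log2) of each gene list on the Msi1, IgG and hnRNP arrays, with the number of genes above the Input floor in parentheses and lists ordered by the Msi1 median. Noncoding RNAs (1.91) and Musashi and hnRNP proteins (0.91) are at the top, where Msi1 lies right of both other arrays, and T cell and myeloid markers (−1.11) are at the bottom.

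Noncoding RNAs had the largest list median. Of 12 long and structural noncoding RNAs above the Input floor 7 were above their bins and 0 below, with a median of 1.91, 0.50 on IgG and 0.52 on hnRNP. The median was 1.28 with the probe set brightest on Input. Rn7sk, the RNA that holds the elongation factor P-TEFb inactive, was the brightest ranked gene on both Input and Msi1, with 13.92 on Input, 11.98 on IgG, 11.31 on hnRNP and 13.42 on Msi1. It was 2.54 above its bin on Msi1 and 2.34 on IgG. Rpph1, the RNA of ribonuclease P, was 2.09 above on Msi1 (0.78 with bins on the mean of both arrays), 2.44 on IgG and 2.78 on hnRNP. Both were thus bright on every array.

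Rny3, a Y RNA bound by the Ro60 protein, read 10.32 on Input, 7.38 on IgG, 7.31 on hnRNP and 10.92 on Msi1, 3.64 above its bin on Msi1 and 1.34 on IgG. Gas5, a host gene of small nucleolar RNAs, was 3.73 above on 1 of its 4 probe sets, at 7.03 on Input and 9.20 on Msi1, but −1.11 with the one brightest on Input, which read 7.47 and 4.43. Tug1 (0.13, or −1.18 with bins on the mean of both arrays) and the telomerase RNA Terc (−0.15) lay on their bins. Small nucleolar and Cajal body RNAs had medians below their bins on all 3 arrays, with 3 of 43 above and 15 below on Msi1. The medians were −0.58 on Msi1, −0.66 on IgG and −0.61 on hnRNP. Of the 43, 20 were under the Msi1 floor of 4.74, and the list's median Msi1 level was 4.88, so much of this lies near background. Scarna17, a guide RNA of Cajal bodies, was 2.33 above on Msi1 and 6.09 on hnRNP. At the low end on Msi1 were Snord57 (−2.63, or −2.55 at the floor) and Snord47 (−2.39, or −0.84 at the floor). By RefSeq type, 56 of 256 long noncoding RNAs were above their bins and 8 below, against 1283 and 868 of 11316 protein-coding genes. The medians of these 256 were 0.25 on Msi1, 0.35 on IgG and 0.41 on hnRNP, so Msi1 was the lowest of the 3 over this wider group.

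MicroRNA genes were above their bins by as much on every precipitated array. Of 300 on the array 72 were above the Input floor, 30 of these above their bins and 3 below, and the medians were 0.78 on Msi1, 0.83 on IgG and 0.81 on hnRNP. Mir187 read 6.17 on Input, 9.76 on IgG, 9.77 on hnRNP and 9.13 on Msi1, 4.03 above its bin on Msi1 and 4.82 on IgG. Mature sequences from RefSeq (GRCm38.p6) are shown for 2 genes near the top of this group and for 3 near the bottom, of which the last pair has the same seed, given in capitals (bases 2 to 8).
miR-483-3p: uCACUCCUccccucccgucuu
let-7e-5p: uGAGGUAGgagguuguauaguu
miR-200b-3p: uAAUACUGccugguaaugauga
miR-192-5p: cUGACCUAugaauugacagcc
miR-215-5p: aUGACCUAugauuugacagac
Mir483 was 3.12 above its bin on Msi1, at 5.99 on Input, 8.24 on Msi1 and 8.88 on IgG, and Mirlet7e 1.95 above, at 4.41, 6.74 and 7.32. For both the IgG signal exceeded the Msi1 signal. The other genes shown, Mir200b (−1.32), Mir215 (−1.04) and Mir192 (−0.92), were below their bins. Their Msi1 signals were 3.48, 4.08 and 3.85, all under the floor, where Mir200b would be −0.07. A probe set of this array can read the precursor as well as the mature RNA.

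The letters UAG, read on the hairpin's own strand, were in 59.5% of the 1005 hairpins of the table and in 65.5% of the 258 that matched a gene on the array. Among the 58 above the Input floor, the 32 with UAG had a median of 0.42 on Msi1 and 0.58 on IgG, and the 26 without had 0.90 and 1.10. Hairpins with and without the letters thus differed in the same direction on the control. By base composition, the 29 hairpins with 41.7% to 57.5% G and C had medians of 0.05 on Msi1, 0.03 on IgG and 0.19 on hnRNP, and the 29 with 57.8% to 69.2% had 0.87, 1.21 and 1.56.

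Published Musashi targets were spread around their bins. Of 19 above the Input floor 4 were at least 2-fold above and 1 below, with a median of 0.15 on Msi1, 0.20 on IgG and 0.14 on hnRNP. The 4 were Cdkn1b on its 1 probe set, Tgfbr1, Tspan3 and Bmpr1a. Tgfbr1, a TGF-beta receptor, read 5.90 on Input, 3.44 on IgG, 3.43 on hnRNP and 6.36 on Msi1, so Msi1 was the highest array, 1.38-fold over Input and 1.25 above the bin. Tspan3, a tetraspanin, read 8.91, 4.82, 4.61 and 7.10 on Input, IgG, hnRNP and Msi1, 1.23 above its bin. Bmpr1a, a BMP receptor, read 8.08, 4.30, 3.58 and 6.99 in the same order, 1.04 above its bin. These 3 genes were brighter on Msi1 than on either other precipitated array, though Bmpr1a and Tspan3 were dimmer than on Input. With bins on the mean of both arrays Tspan3 was −0.08 and Bmpr1a 0.76, so both calls were lost, and the list median turned to −0.08.

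Numb, the Notch inhibitor first described as a Musashi target, read 8.42 on Input, 4.06 on IgG, 4.30 on hnRNP and 6.64 on Msi1, which was 0.68 above its bin. Apc, the brake on Wnt signalling, read 7.38, 4.92, 4.91 and 6.08 in the same order, 0.60 above. Aff4 (0.51, or −0.67 with bins on the mean of both arrays), a subunit of the super elongation complex, Mycn (0.96 on Msi1, 1.12 on IgG) and Notch1 (0.67 on Msi1, 1.21 on IgG) were also under the threshold. Near their bins were Numbl (0.15), Smad3 (0.06), Kit (−0.11), Ikzf2 (−0.13), Jag1 (−0.17), Ccnd1 (−0.19), Myc (−0.22), Ptprf (−0.27) and Cdk6 (−0.30). Lrig1, a brake on growth factor receptors in stem cells, was −1.03 with a Msi1 value of 4.32 under the floor, or −0.62 at the floor. Cdkn1a was not among the 23 published targets that had values here. Cdkn2a, Dcx, Hoxa9 and Robo3 were below the Input floor. Cdkn2a read 4.03 on Input and 5.50 on Msi1, at least 2.66-fold higher, and 5.74 on IgG and 6.28 on hnRNP. That bound is against the Input floor of 4.08 and does not allow for the higher Msi1 floor of 4.74.

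Enterocyte markers were lower on Msi1 than on Input in plain differences, yet their median lay close to that of their bins. All 30 enterocyte markers were at least 2-fold lower, with a median difference of −2.88, but their median bin-adjusted difference was −0.05, with 4 above and 4 below. Fabp2, a fatty acid-binding protein, read 11.07 on Input, 5.22 on IgG, 4.22 on hnRNP and 9.78 on Msi1, 1.75 above its bin, and the keratin Krt20 was 1.79 above. With bins on the mean of both arrays neither reached the threshold (0.44 and 0.48). The lactase gene Lct, at 9.78, 5.06, 5.68 and 5.15 in the same order, was −1.59. The list median under that binning was −1.15.

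The secretory and stem cell markers had few calls. Goblet cell markers had 1 of 13 above and 2 below and a median of 0.07, from Guca2a, the guanylin gene (1.06), to the mucin Muc2 (−1.54), and Guca2a turned to −0.25 with bins on the mean of both arrays. Stem cell markers had 1 of 19 above and 1 below and a median of 0.01, with Cdca7, a Myc target, at 1.14 (1.49 on IgG, and 0.996 on Msi1 with bins on the mean of both arrays) and the Wnt receptor Lgr5 at −0.74. Enteroendocrine markers had 1 of 20 above and 2 below, from the transcription factor Insm1 (1.03) to chromogranin Chga (−1.53, or −0.93 at the floor). Tuft cell markers had 1 of 10 above, the G protein regulator Rgs13 (1.43), and 0 below. Paneth cell and antimicrobial genes were lower, with 0 of 12 above and 5 below and medians of −0.61 on Msi1, −0.75 on IgG and −0.93 on hnRNP. Itln1, an intestinal lectin, was −1.82 and the antimicrobial lectin Reg3b 0.69, at 10.82 on Input and 8.47 on Msi1, or −0.62 with bins on the mean of both arrays.

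Immune cell markers had no call above their bins. T cell and myeloid markers had 0 of 11 above and 6 below, with medians of −1.11 on Msi1, −0.55 on IgG and −0.41 on hnRNP. Cd3g, a T cell receptor chain, read 6.36 on Input, 3.93 on IgG, 4.42 on hnRNP and 3.35 on Msi1, −1.81 from its bin, and the integrin Itgae of intraepithelial lymphocytes was −1.61. Of these 11 genes 8 were under the Msi1 floor, and at the floor Cd3g was −0.43 and Itgae −0.26. B and plasma cell markers had 0 of 9 above and 4 below, with medians of −0.71 on Msi1 and −0.33 on IgG, and 5 of the 9 were under the Msi1 floor. Above their bins without reaching the threshold were 1 of the 11 and 3 of the 9, among them the immunoglobulin gene Igkv4-55 (0.92 on Msi1, 2.82 on IgG) and Xbp1 (0.51), a factor of secretory cells. Stromal and muscle markers had 2 of 8 above, the collagens Col6a1 (2.01 on Msi1, 2.80 on IgG) and Col1a1 (1.29 and 1.38), and 1 below, the proteoglycan Dcn (−1.55, or −0.51 at the floor). The 3 enteric neural genes above the Input floor were Hand2 (−0.05), Sox10 (−0.15) and Snap25 (−0.48).

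Signalling and proliferation groups gave small shifts. Cell cycle genes had 1 of 28 above and 5 below, with medians of −0.45 on Msi1, −0.06 on IgG and 0.12 on hnRNP. Pcna, the replication clamp, read 9.83 on Input, 4.63 on IgG, 4.46 on hnRNP and 9.12 on Msi1, 2.33 above its bin, while the ribonucleotide reductase subunit Rrm1 (−1.77) and the spindle checkpoint kinase Bub1 (−1.58) were below. Both of these had Msi1 values under the floor, and at the floor they were −1.08 and −0.78. Pcna was the 1 gene of its group above the threshold. Its other probe set read 10.61 on Input, 3.03 on IgG, 1.70 on hnRNP and 10.81 on Msi1, and with it the bin-adjusted difference was 3.29. Wnt pathway genes had 3 of 25 above and 1 below (median 0.30, 0.29 on IgG), with the kinase Csnk1a1 at 2.00 and Gsk3a at −1.07. Notch pathway genes had 3 of 22 above and 1 below (median 0.34, 0.11 on IgG), with the ubiquitin ligase Itch at 2.42 and Psenen lowest. TGF-beta and BMP receptors and Smads had 3 of 21 above and 0 below (median 0.09), and PI3K and mTOR pathway genes had 0 of 21 in either direction (median 0.00). Cyclin-dependent kinase inhibitors had 1 of 6 above, Cdkn1b, and the next was Cdkn1c at 0.98, with 1.18 on hnRNP.

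The remaining families were large or centred on their bins. Histone genes had 6 of 30 above and 4 below (median 0.03), with H2aj at 2.86 and H2bc4 at 2.68. Intestinal transcription factors had 1 of 18 above, Cdx1 (1.25, 1.20 on IgG), and 0 below, and immediate early genes 2 of 19 above and 2 below, with medians of 0.05 on Msi1 and 0.52 on IgG. Zinc finger genes named Zfp (15 of 222 above, 28 below, median −0.17), solute carriers (14 of 224, 32 below, median −0.21) and enzymes of xenobiotic and steroid metabolism (5 of 65, 9 below, median −0.42) were lower. In the last group the IgG median was −0.38. Msi1 values lay under the floor for 100 of the 222 Zfp genes, 73 of the 224 solute carriers and 19 of the 65 enzymes. The counts below therefore rest partly on values at background. At the floor the lowest Zfp gene, Zfp971, went from −2.46 to −0.60 and the lowest solute carrier, Slc44a3, from −2.44 to −1.15. Among solute carriers Slc35a3, a Golgi nucleotide sugar transporter, read 7.43 on Input, 3.61 on IgG, 4.31 on hnRNP and 8.89 on Msi1, 3.35 above its bin. The choline transporter Slc44a1 was 3.16 above, or 1.94 with its 2 probe sets averaged.

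Some genes had values above the floor on Msi1 but not on Input, on the probe set used. There were 993 above the Msi1 floor and below the Input floor, and 372 of them were at least 2-fold over the Input floor. The Msi1 floor (4.74) was itself higher than the Input floor (4.08), and the dimmest Input bin had a median Msi1 minus Input of 0.53. This count and the bounds below do not allow for that offset. Of these 372, 230 were also above the IgG floor and 142 were not. Selenok, a selenoprotein of the endoplasmic reticulum, read 3.70 on Input, 3.64 on IgG, 3.84 on hnRNP and 6.27 on Msi1, at least 4.55-fold higher than Input. Psd3, an exchange factor for small GTPases, read 6.52 on Msi1 and 3.43 on Input on 1 of its 2 probe sets, at least 5.41-fold higher, and its other probe set read 5.41 on Input and 4.76 on Msi1. Palm3, at 3.47 on Input and 6.45 on Msi1, read 6.76 on IgG and 6.94 on hnRNP. The muscle gene Trdn had the same pattern on 1 of its 19 probe sets, with 6.29 on Msi1, 6.87 on IgG and 7.29 on hnRNP. Another Trdn probe set read 5.63 on Input and 5.07 on Msi1. On the probe sets used, for Palm3 and Trdn every precipitated array was far above Input and Msi1 read lowest of the 3. The floors differed (4.74 on Msi1, 5.265 on IgG and 5.17 on hnRNP), so this order need not hold over background.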

How the data were processed

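The 4 arrays, 1 per group by the antibody in the labels, were used as deposited. The authors deposited log2 values, 1 per probe set and array. The tool affy is named without a version in the submitters' processing notes, and the sources used here do not state the log base, the normalization or the background correction. Base 2 was read off the range of values, on which each fold therefore depends. The unequal spread of the arrays could change any plain difference. Probe sets with several symbols (1321) or none (11799) were kept out. The RefSeq table of GRCm38.p6 held the Entrez identifier of 21553 probe sets. A gene with several probe sets (954 genes) was given the set brightest on average across the 4 arrays, which favours sets bright on Msi1. Floors on IgG and hnRNP were 5.265 and 5.17. Bins held equal numbers of genes, and a call is a difference of 1 log2 unit. Folds printed for single genes against a value under its floor were taken against the floor. Counts of calls used the values as deposited unless stated.

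Genes named were the 15 highest and 15 lowest by difference from Input, the 20 highest and 15 lowest within bins, the 10 brightest of each array, Msi1, Msi2 and published targets, and up to 4 members per list, leaving predicted genes, clones, receptors, Snora, Snord and microRNAs out of rankings. Mir192, Mir215, Mir483 and Mirlet7e, the genes at the threshold and the promoters shown were chosen after their values were seen. The members and the 41 gene lists were chosen with earlier results of these data known, and no list is independent support. Of 585 list members sought by symbol 64 had no match, among them 11 of the noncoding RNA list and 11 of the Paneth list. Of the receptor list 61 genes passed the Input floor, 3 were above and 1 below their bins. Alternatives covered scaling, floor, threshold, probe set and binning. Only the binning step was tested on simulated data, with known shifts and less scatter than in the real bins. That test gives no rate of false calls for these arrays. Software was matplotlib 3.10.9, statsmodels 0.14.6, scipy 1.17.1, pandas 2.3.3 and numpy 2.4.6 under Python 3.11.15.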

Additional observations from a re-analysis of the deposited data

Results flagged for a closer look

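Probe sets outside the gene comparison also had signal above the control. Of those with several gene symbols 812 were above the Input floor, 155 (19.1%) were at least 2-fold above their Input bin and 161 (19.8%) below it, and 78 of the higher ones (9.61% of the 812) were also at least 2-fold over IgG. Of those with no symbol here 5113 were above the Input floor, 1373 (26.9%) were above their bin and 1025 below, and 522 of the higher ones (10.2% of the 5113) were also at least 2-fold over IgG. Their median bin-adjusted differences were −0.09 and 0.11. Among genes, 766 of 11791 (6.50%) were above their bin and at least 2-fold over IgG. These probe sets were noted because they carry signal that the gene comparison does not use.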

How the results depend on the processing

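No paired analysis was possible because each group had 1 array, and with no replicates none could be left out. The 1510 genes higher than Input became 883 with median centring, 2381 with quantile normalization, 724 with a floor at the 99th percentile, 3184 with no floor, 701 with detection on both arrays, 2593 at 1.5-fold and 365 at 3-fold. The 4901 lower became 3204 with quantile normalization, 2408 with loess centring and 3121 at 3-fold. The 1391 above their bins became 2657 at 1.5-fold, 615 at 3-fold and 2157 with quantile normalization. The 901 below became 208 with detection on both arrays, 2366 at 1.5-fold, 164 at 3-fold, 2066 with bins of the mean of both arrays and 1908 with quantile normalization. Other thresholds and floors change counts by construction, and the cause of the other changes was not tested. All 1391 genes stayed above their bins with quantile normalization and 892 of the 901 stayed below, against 1212 and 775 with bins of the mean and 1321 and 856 with the probe set brightest on Input. The share of calls above the bin was 60.7%, 82.4% with detection on both arrays, 48.2% with bins of the mean and 78.9% at 3-fold. With bins of the mean, 12 named genes changed sign. They were COX2 (−0.064), Guca2a (−0.25) and Tspan3 (−0.08), which had been past the threshold, and Aff4 (−0.67), Reg3b (−0.62), Tug1 (−1.18), Pdgfrb (0.51), Hand2 (0.37), Xbp1 (−0.093), Smad3 (−0.052), Sox10 (0.04) and Cd14 (0.016), which had not. The medians of 14 lists did so too, among them stability regulators (−0.059), cytosolic ribosomal proteins (−0.31), ER and secretory genes (−0.36), goblet markers (−0.54), intestinal transcription factors (−0.10), published targets (−0.08) and tuft markers (0.056), with the others at medians close to 0. With probe sets averaged per gene, Gas5 (−0.17), Ube2l3 (0.10) and Cks2 (−0.13) changed sign, and 3 lists with medians close to 0. With the probe set brightest on Input, chosen for single genes and lists after seeing the data, Gas5 (−1.11), Ube2l3 (1.23), Zfand1 (−0.10), Zfp706 (−0.86), Cks2 (−1.36) and cytosolic ribosomal proteins (−0.007) did. Ube2l3 also did with quantile normalization (1.34), where its probe set was chosen again. Of the 1391, 1144 had 1 probe set, and of the 84 whose probe set changed 30 stayed above. Signal over background limits the low side, where 752 of the 901 lay under the Msi1 floor.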
